A study of Homo sapiens with 8 samples.

Results

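The expression of genes of translesion synthesis and damage tolerance was followed, namely POLH, POLK, POLI, REV1, REV3L, MAD2L2, RAD18, HLTF, SHPRH and POLQ. They were taken by gene symbol from the count file and are 10 of its 26364 genes. All 10 were among the 14201 genes that passed the filter on low counts. The cells were LN229, a human glioblastoma line, stably transfected with a pcDNA3.1 plasmid that codes for survivin fused to eGFP and kept in medium with G418. In Surv-GFP cells the nuclear export signal of survivin was functional, and without TMZ the fusion protein was mainly cytoplasmic. In SurvNESmut-GFP cells leucines of this signal were replaced by alanine and the protein was mainly nuclear. Each clone was left untreated or was exposed to 50 µM temozolomide (TMZ) for 48 h, and bulk RNA was sequenced from 2 libraries, a and b, in each of the 4 groups. The groups are named Surv-GFP untreated, Surv-GFP TMZ, SurvNESmut-GFP untreated and SurvNESmut-GFP TMZ. Each survivin form was represented by 1 clone, so the form of survivin and other properties of the clone cannot be told apart, and all cells carried a survivin plasmid. Untransfected LN229 cells were not analysed here. The study describes independent biological replicates of each clone, run in technical duplicate, and which of these the letters a and b stand for was not given. If they are technical, the p values measure only the spread between these libraries.

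Translesion synthesis lets a replication fork pass a damaged base that the replicative polymerases cannot copy. RAD18 ubiquitinates PCNA at stalled forks, which recruits the Y-family polymerases, and HLTF and SHPRH extend that mark into the chain used for error-free template switching. Polymerase zeta, built on REV3L and MAD2L2, then extends from the inserted base. TMZ methylates DNA, and in cells without the repair protein MGMT the methylguanine left in the template leads to mismatches, renewed repair and broken forks. These genes code for enzymes whose activity is also set by ubiquitination and protein contacts, which RNA levels do not show.

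The libraries held between 15826923 and 18861603 counts assigned to genes. Expression profiles of libraries of one group correlated at r of at least 0.994 across genes, and libraries of different groups at no more than 0.986. BIRC5, the survivin gene, rose upon TMZ in Surv-GFP cells from 1133 ± 27.9 to 1984 ± 64.6 CPM and fell in SurvNESmut-GFP cells from 411 ± 5.22 to 258 ± 6.89 CPM (SD, n = 2). Reads of the plasmid and of the cells' own gene could not be told apart in these counts. MGMT had 0 counts in all 8 libraries. Of 7 genes listed for the glioblastoma line, VIM, NES, CD44, SOX2 and EGFR passed the low-count filter, GFAP had between 0 and 17 counts and MGMT had none. That filter was passed by 14201 genes, so passing it does not identify the line. SOX2 was at 90.7 ± 2.64 CPM in Surv-GFP untreated and 34.4 ± 1.14 CPM in SurvNESmut-GFP untreated cells (SD, n = 2). Of 9 marker genes of other cell types, 3 passed the filter, and the summed level of the 9 ranged from 13.4 to 14.3 CPM in Surv-GFP untreated, 19.3 to 20.9 in Surv-GFP TMZ, 25.1 to 25.2 in SurvNESmut-GFP untreated and 27.6 to 30.6 CPM in SurvNESmut-GFP TMZ cells. Between untreated clones all 3 were called higher in SurvNESmut-GFP cells (background 34.7%), and between TMZ-exposed clones 1 was (background 34.5%). MBP had a mean of 0 CPM in both Surv-GFP groups, and of 6.66 untreated and 6.43 CPM after TMZ in SurvNESmut-GFP cells. The part of these in the results was not tested.

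All levels below are CPM, the counts of a gene scaled by TMM-adjusted library size. Fold changes are log2 values ± their standard error (SE). They were tested by edgeR's quasi-likelihood method, and adjusted p values are Benjamini-Hochberg values over the 14201 genes, with a gene called at 0.05.

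The question of the first comparison was what TMZ did to these genes in cells with export-competent survivin. The localisation of survivin after TMZ was not measured in these data. By immunofluorescence, the paper reports that Surv-GFP protein accumulated in the nucleus after exposure to TMZ. The Surv-GFP TMZ libraries are therefore not taken here as cells with cytoplasmic survivin. In Surv-GFP cells 4 of the 10 genes fell upon TMZ and 1 rose. Of all tested genes 28.9% fell and 30.1% rose, so the share of genes that fell, 4 of 10, was not far above the background. The genes that fell were POLH, HLTF, RAD18 and POLK, which came down by between 26.9% and 35.9%, and the gene that rose was REV3L. The median log2 fold change of the 10 genes was -0.09 (all tested genes 0.00) and their median absolute change was 0.21 (all tested genes 0.32). In bulk RNA, fewer cells in a state that expresses a gene and less RNA per cell cannot be told apart.

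POLH encodes polymerase eta, the Y-family enzyme that copies past ultraviolet lesions accurately, and is lost in the variant form of xeroderma pigmentosum. Its level was 39.7 and 41.9 CPM in Surv-GFP untreated cells, 25.9 and 26.3 CPM after TMZ, 42.6 and 40.9 CPM in SurvNESmut-GFP untreated cells and 43.9 and 42.4 CPM after TMZ. The libraries of TMZ-exposed Surv-GFP cells were thus the low ones, and the other 6 lay close together. In Surv-GFP cells POLH fell by 35.9% (log2 fold change -0.64 ± 0.07, edgeR adjusted p = 5.2e-07), and 23.8% of tested genes changed by more. In SurvNESmut-GFP cells the libraries of both conditions overlapped and the log2 fold change was 0.05, with a 95% interval from -0.09 to 0.19.

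HLTF is a translocase and ubiquitin ligase that remodels stalled forks and builds ubiquitin chains on PCNA. Surv-GFP libraries held 74.4 and 76.7 CPM untreated and 50.1 and 48.9 CPM after TMZ. SurvNESmut-GFP libraries held 105 and 105 CPM untreated and 101 and 113 CPM after TMZ. Both groups of the Surv-GFP clone lay below every SurvNESmut-GFP library, and TMZ widened that gap. HLTF fell by 34.5% in Surv-GFP cells (log2 fold change -0.61 ± 0.06, edgeR adjusted p = 2.3e-07). The log2 fold change in SurvNESmut-GFP cells was 0.02, with an interval from -0.10 to 0.14. Of the exon bases of HLTF, 2.44% overlap HLTF-AS1 on the opposite strand.

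RAD18, the ligase that places the first ubiquitin on PCNA, was measured at 94.0 and 98.4 CPM in Surv-GFP untreated cells and at 66.6 and 66.1 CPM after TMZ. In SurvNESmut-GFP cells it was 58.3 and 66.4 CPM untreated and 70.3 and 62.9 CPM after TMZ. The untreated Surv-GFP libraries stood above the other 6, which ran from 58.3 to 70.3 CPM. RAD18 fell by 31.0% upon TMZ in Surv-GFP cells (log2 fold change -0.54 ± 0.07, edgeR adjusted p = 2.8e-06) and had a log2 fold change of 0.10 in SurvNESmut-GFP cells, with an interval from -0.05 to 0.24. Without SurvNESmut-GFP TMZ replicate b the latter was 0.18 and called (edgeR adjusted p = 0.0461). RAD18 therefore reached in TMZ-exposed Surv-GFP cells a level close to that of SurvNESmut-GFP cells.

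POLK encodes polymerase kappa, which extends from mispaired ends and passes bulky minor-groove adducts. It was at 74.8 and 75.3 CPM in Surv-GFP untreated cells and at 55.3 and 54.5 CPM after TMZ, and at 34.4 and 36.1 CPM in SurvNESmut-GFP untreated cells and 38.8 and 38.3 CPM after TMZ. No groups overlapped. POLK fell by 26.9% in Surv-GFP cells (log2 fold change -0.45 ± 0.05, edgeR adjusted p = 2.4e-06), while the log2 fold change in SurvNESmut-GFP cells was 0.13 with an interval from -0.00 to 0.26 (edgeR adjusted p = 0.114). Exons of POLK share bases with genes on the opposite strand, 8.28% of their length with AC010245.1 and 2.53% with COL4A3BP, and strandedness of the counts was not given. COL4A3BP moved in the direction of POLK and by more in each comparison that called POLK, with log2 fold changes of -1.83 upon TMZ in Surv-GFP cells, 1.08 for the difference between the clones, -2.28 between untreated and -1.20 between TMZ-exposed clones. Upon TMZ in SurvNESmut-GFP cells it fell by 0.75 on the log2 scale, where POLK was at 0.13. The part of such shared bases in the POLK counts was not tested. With scaling by library size alone POLK was called higher upon TMZ in SurvNESmut-GFP cells (0.17, edgeR adjusted p = 0.0487).

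**Figure D1:**
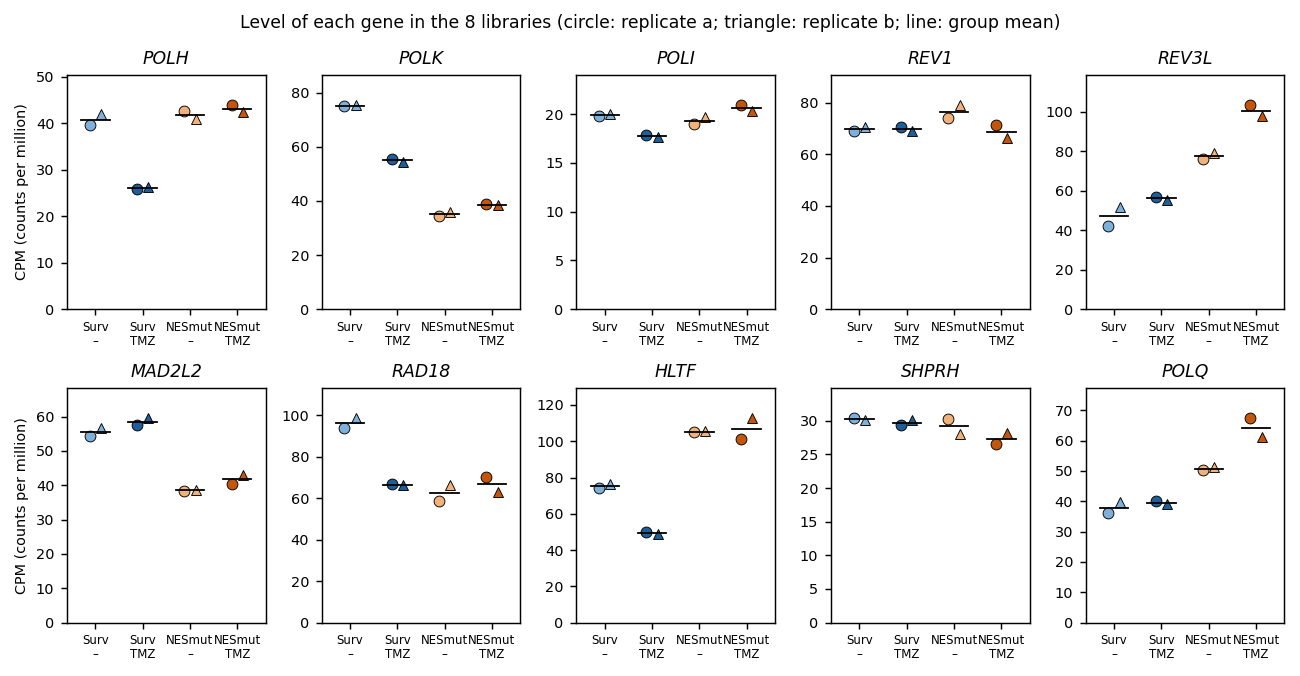
Level of each gene in the 8 libraries in CPM (vertical axis from 0, scale differing by panel), with groups on the horizontal axis (– is untreated), a circle for replicate a, a triangle for replicate b and a line for the group mean. POLH, POLK, RAD18 and HLTF drop from untreated to TMZ-exposed Surv-GFP cells and not in SurvNESmut-GFP cells, and REV3L and POLQ are highest in TMZ-exposed SurvNESmut-GFP cells.

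The promoters of the 4 genes that fell together in Surv-GFP cells are shown because they are the stretches on which shared transcription factor motifs would be sought. Each covers 250 bases before to 50 bases after the RefSeq start site on GRCh38.p14, written 5′ to 3′ along the gene: POLH on chr6:43575935-43576234 (plus strand), POLK on chr5:75511641-75511940 (plus strand), RAD18 on chr3:8963423-8963722 (minus strand) and HLTF on chr3:149086484-149086783 (minus strand). Capitals mark matches, on either strand, to the GC box GGGCGG, the CCAAT box, the cell cycle element CHR (TTTGAA), the E2F motif (TTT, then G or C in each of 2 positions, then CGC) and the CRE half-site TGACG.
POLH: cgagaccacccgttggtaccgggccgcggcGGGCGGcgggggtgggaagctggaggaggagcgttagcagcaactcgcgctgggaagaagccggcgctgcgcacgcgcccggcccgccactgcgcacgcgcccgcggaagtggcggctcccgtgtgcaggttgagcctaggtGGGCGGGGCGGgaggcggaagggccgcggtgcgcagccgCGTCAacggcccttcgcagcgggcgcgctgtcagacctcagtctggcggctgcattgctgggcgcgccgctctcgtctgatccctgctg
POLK: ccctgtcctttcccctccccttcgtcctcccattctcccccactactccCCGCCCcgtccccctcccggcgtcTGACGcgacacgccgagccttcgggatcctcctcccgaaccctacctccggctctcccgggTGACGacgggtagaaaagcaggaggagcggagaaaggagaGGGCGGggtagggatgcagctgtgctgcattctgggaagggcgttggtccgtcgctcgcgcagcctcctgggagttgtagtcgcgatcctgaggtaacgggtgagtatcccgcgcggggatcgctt
RAD18: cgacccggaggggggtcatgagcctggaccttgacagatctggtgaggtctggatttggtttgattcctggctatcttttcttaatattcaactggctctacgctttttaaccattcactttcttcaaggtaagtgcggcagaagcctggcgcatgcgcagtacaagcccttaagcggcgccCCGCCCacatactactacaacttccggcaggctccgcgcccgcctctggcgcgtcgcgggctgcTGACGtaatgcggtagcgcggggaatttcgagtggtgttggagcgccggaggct
HLTF: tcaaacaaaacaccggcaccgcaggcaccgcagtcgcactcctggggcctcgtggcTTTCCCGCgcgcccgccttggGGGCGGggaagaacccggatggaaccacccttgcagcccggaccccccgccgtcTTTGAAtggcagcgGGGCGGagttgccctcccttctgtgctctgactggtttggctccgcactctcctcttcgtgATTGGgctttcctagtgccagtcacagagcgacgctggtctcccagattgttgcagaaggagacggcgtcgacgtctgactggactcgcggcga
HLTF was alone among these 4 in holding a CCAAT box, a CHR and an E2F match, 1 of each, which stood in 34.6%, 15.2% and 3.31% of the 35116 promoters of the table. POLH, POLK and RAD18 each held a CRE half-site (1, 2 and 1 matches), present in 24.6% of all promoters, and all 4 held a GC box, present in 45.0%. The ETS motif CCGGAAG, not set in capitals and present in 10.3% of promoters, matched once in RAD18 and in none of the other 3. The p53 half-site, present in 6.63% of promoters, and the p53 full site, present in 0.0285%, matched in no promoter of the 10 genes. Of the other 6 genes, SHPRH and 1 of the 2 MAD2L2 promoters also held a CRE half-site, the same MAD2L2 promoter held a CCAAT box, POLQ held 2 CHR matches, and POLI and 1 of the 2 REV3L promoters held an E2F match each. The ETS motif matched in POLQ and POLI (1 and 2 matches), and each of these 6 genes but POLI held a GC box. No motif searched was shared by the 4 genes apart from the GC box.

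REV3L, the catalytic subunit of polymerase zeta, went the other way. Its level was 42.3 and 52.0 CPM in Surv-GFP untreated cells and 57.1 and 55.5 CPM after TMZ, against 76.1 and 79.2 CPM in SurvNESmut-GFP untreated cells and 103 and 98.0 CPM after TMZ. The 4 groups did not overlap, although the untreated Surv-GFP libraries differed from each other by more than those of the other groups (SD 6.84 CPM, against 1.14 to 3.89). REV3L rose upon TMZ in both clones, by 19.5% in Surv-GFP cells (log2 fold change 0.26 ± 0.08, edgeR adjusted p = 0.00917) and by 29.8% in SurvNESmut-GFP cells (0.38 ± 0.07, edgeR adjusted p = 0.000489). The rise in Surv-GFP cells rested on single libraries: it was 0.12 without Surv-GFP untreated replicate a (edgeR adjusted p = 0.215) and 0.24 without Surv-GFP TMZ replicate a (edgeR adjusted p = 0.0592). MAD2L2, the small REV7 subunit that links polymerase zeta to REV1, had 54.4 and 56.7 CPM untreated and 57.5 and 59.5 CPM after TMZ in Surv-GFP cells, and 38.4 and 38.6 CPM untreated and 40.4 and 43.0 CPM after TMZ in SurvNESmut-GFP cells. The libraries after TMZ were above the untreated ones in each clone, but the log2 fold changes of 0.07 (interval -0.05 to 0.20) and 0.11 (-0.02 to 0.25) did not pass the test.

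In SurvNESmut-GFP cells 2 of the 10 genes rose upon TMZ (background 18.6%) and 1 fell (background 19.1%). The genes that rose were REV3L and POLQ, and REV1 fell. Their median log2 fold change was 0.10 against 0.00 for all tested genes, and the median absolute change was 0.11 against 0.20. DESeq2 called the same number higher and 0 lower, and at an unadjusted edgeR p under 0.05 the counts were 2 and 1.

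POLQ encodes polymerase theta, which joins broken ends through short homologies and also inserts bases opposite lesions. It was measured at 36.1 and 39.7 CPM in Surv-GFP untreated and 40.1 and 39.0 CPM in Surv-GFP TMZ libraries, which overlapped. In SurvNESmut-GFP cells it was 50.3 and 51.3 CPM untreated and 67.3 and 61.2 CPM after TMZ. The SurvNESmut-GFP libraries lay above all Surv-GFP libraries, and those after TMZ were highest. POLQ rose by 26.7% upon TMZ in SurvNESmut-GFP cells (log2 fold change 0.34 ± 0.07, edgeR adjusted p = 0.000603), and in Surv-GFP cells its log2 fold change was 0.06 with an interval from -0.09 to 0.21.

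REV1, a deoxycytidyl transferase and the scaffold on which the other translesion polymerases assemble, stayed in a narrow band. Surv-GFP libraries held 68.9 and 70.5 CPM untreated and 70.6 and 69.0 CPM after TMZ, and SurvNESmut-GFP libraries held 74.0 and 79.1 CPM untreated and 71.2 and 66.4 CPM after TMZ. The untreated SurvNESmut-GFP libraries were the highest. REV1 fell by 10.0% upon TMZ in SurvNESmut-GFP cells (log2 fold change -0.15 ± 0.06, edgeR adjusted p = 0.0448), a call that was lost with DESeq2 and without 6 of the 8 libraries in turn, so that no gene of the 10 then fell. Of the exon bases of REV1, 11.0% overlap EIF5B on the opposite strand. EIF5B was at -0.10 upon TMZ in SurvNESmut-GFP cells (edgeR adjusted p = 0.177) and at 0.25 between untreated clones, where REV1 was at -0.15 and 0.13. It was at -0.25 upon TMZ in Surv-GFP cells and 0.40 between TMZ-exposed clones, where REV1 was at 0.00 and -0.02. The part of the shared bases in the REV1 counts was not tested.

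POLI and SHPRH were the genes with the lowest levels per length and did not pass the test for TMZ in either clone. POLI, the Y-family polymerase iota, had 19.78 and 19.98 CPM untreated and 17.86 and 17.62 CPM after TMZ in Surv-GFP cells, and 19.03 and 19.67 CPM untreated and 20.93 and 20.36 CPM after TMZ in SurvNESmut-GFP cells. Those libraries separated by treatment in each clone, with log2 fold changes of -0.16 (interval -0.34 to 0.01) and 0.09 (-0.08 to 0.27). SHPRH, the second ligase for PCNA chains, had 30.3 and 30.1 CPM untreated and 29.4 and 30.1 CPM after TMZ in Surv-GFP cells, and 30.3 and 28.0 CPM untreated and 26.5 and 28.2 CPM after TMZ in SurvNESmut-GFP cells. Its log2 fold changes were -0.02 (-0.18 to 0.13) and -0.09 (-0.25 to 0.07), and 10.1% of its exon bases overlap AL356599.1 on the opposite strand. For POLI 6.60% overlap AC093462.1 on the opposite strand. POLI had the fewest reads of the 10, between 307 and 365 counts per library, and its value in Surv-GFP cells was called with a filter of at least 1 CPM in 2 libraries (-0.21, edgeR adjusted p = 0.0425).

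To examine whether the response to TMZ differed between the clones, the difference of the log2 fold changes (SurvNESmut-GFP minus Surv-GFP) was tested as an interaction. For 5 of the 10 genes it was called above 0 (background 16.6%) and for 0 below (background 20.2%). The count below was also 0 at an unadjusted edgeR p under 0.05 and with DESeq2. The differences were 0.69 ± 0.09 for POLH (edgeR adjusted p = 2.8e-05), 0.63 ± 0.08 for HLTF (1.7e-05), 0.63 ± 0.10 for RAD18 (7.6e-05) and 0.58 ± 0.08 for POLK (4.7e-05). The TMZ-to-untreated ratio of these 4 genes was thus between 49.7% and 61.5% higher for SurvNESmut-GFP than for the Surv-GFP clone. POLQ had a difference of 0.28 ± 0.10 (edgeR adjusted p = 0.0310), which DESeq2 did not call (adjusted p = 0.0835). Its call was also lost when any library but Surv-GFP untreated replicate a or SurvNESmut-GFP TMZ replicate b was left out, with values from 0.21 to 0.30. For REV3L, which rose in both clones, the difference was 0.12 with an interval from -0.10 to 0.34. The differences of MAD2L2 (0.04, -0.14 to 0.22), SHPRH (-0.07, -0.29 to 0.15), REV1 (-0.16, -0.33 to 0.02) and POLI (0.26, 0.01 to 0.51, edgeR adjusted p = 0.0998) did not pass. The median over the 10 genes was 0.27, against -0.00 over all tested genes, and the median absolute difference was 0.27 against 0.28.

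**Figure D2:**
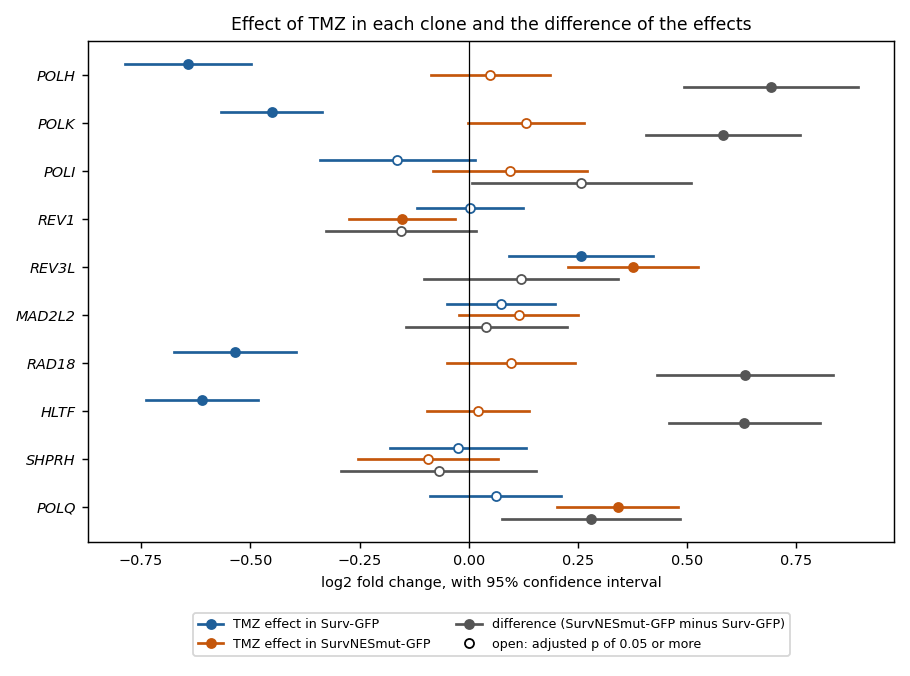
Log2 fold change upon TMZ in Surv-GFP cells (blue), in SurvNESmut-GFP cells (orange) and the difference between them (grey) for each gene, with 95% confidence intervals from edgeR and open symbols where the adjusted p was 0.05 or more. The blue intervals of POLH, POLK, RAD18 and HLTF lie wholly below 0 while their orange intervals include 0, and REV3L lies above 0 in both clones.

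**Figure D3:**
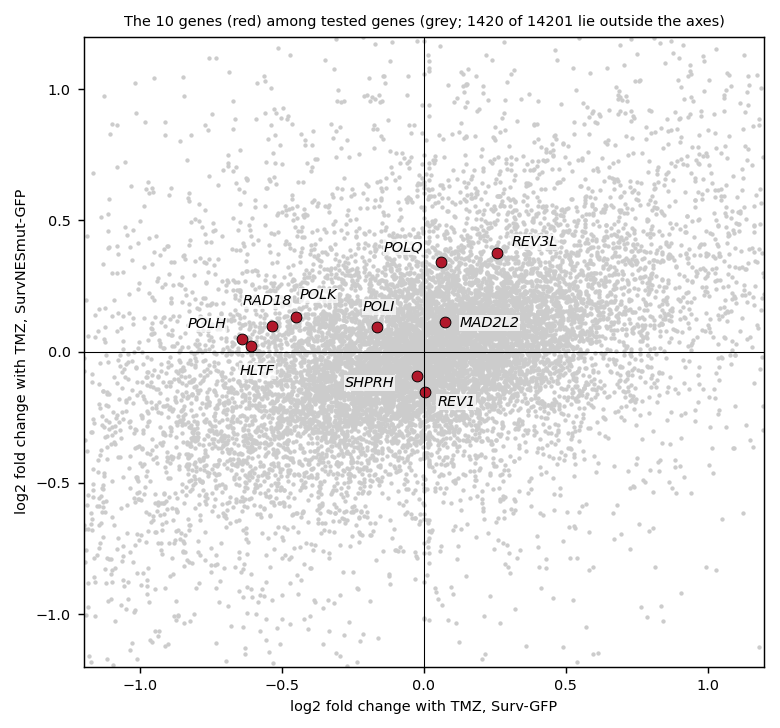
Log2 fold change upon TMZ in Surv-GFP cells (horizontal) against SurvNESmut-GFP cells (vertical) for all tested genes (grey) and the 10 genes (red), with 1420 of 14201 genes outside the axes. POLH, HLTF, RAD18 and POLK lie to the left at a vertical value near 0, and POLQ and REV3L lie at the top of the 10.

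The clones differed in these genes before TMZ. In untreated cells 4 of the 10 genes were higher in the SurvNESmut-GFP clone than in the Surv-GFP clone (background 34.7%) and 3 were lower (background 29.4%), shares close to those of all genes. REV3L (log2 fold change 0.72 ± 0.07, edgeR adjusted p = 3.4e-07), HLTF (0.48 ± 0.06, 1.3e-06) and POLQ (0.42 ± 0.07, 4.8e-05) were higher, by factors of 1.65, 1.39 and 1.34. REV1 was also called, by 9.75% (0.13 ± 0.06, edgeR adjusted p = 0.0471), but not with DESeq2 (adjusted p = 0.259) or any other alternative run apart from the robust prior and leaving out SurvNESmut-GFP untreated replicate a. POLK was 2.13-fold lower (-1.09 ± 0.06, edgeR adjusted p = 7.7e-11), RAD18 1.54-fold lower (-0.62 ± 0.07, 4.0e-07) and MAD2L2 1.44-fold lower (-0.53 ± 0.06, 1.2e-06). POLH, POLI and SHPRH did not pass, with log2 differences of 0.03 (interval -0.10 to 0.17), -0.04 (-0.21 to 0.14) and -0.05 (-0.21 to 0.10). The polymerase zeta subunits REV3L and MAD2L2 thus differed in opposite directions, REV3L being higher and MAD2L2 lower in SurvNESmut-GFP cells.

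After TMZ 5 of the 10 genes were higher in SurvNESmut-GFP cells (background 34.5%) and 2 were lower (background 34.7%). HLTF differed most, by a factor of 2.16 (log2 difference 1.11 ± 0.06, edgeR adjusted p = 7.1e-11), followed by REV3L (0.84 ± 0.07, 2.9e-08), POLH (0.72 ± 0.07, 8.5e-08) and POLQ (0.70 ± 0.07, 1.0e-07). POLI was called at 0.22 ± 0.08 (edgeR adjusted p = 0.0298) but not with DESeq2 (adjusted p = 0.158) or when any of the 4 libraries compared was left out. POLK (-0.51 ± 0.06, edgeR adjusted p = 1.0e-06) and MAD2L2 (-0.49 ± 0.06, 2.4e-06) were lower. RAD18, lower in untreated SurvNESmut-GFP cells, was at a log2 difference of 0.01 after TMZ, with an interval from -0.14 to 0.15. POLH showed the opposite order, with no called difference in untreated cells and a called one after TMZ. These clone comparisons share libraries with the TMZ comparisons and are not independent of them.

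**Figure D4:**
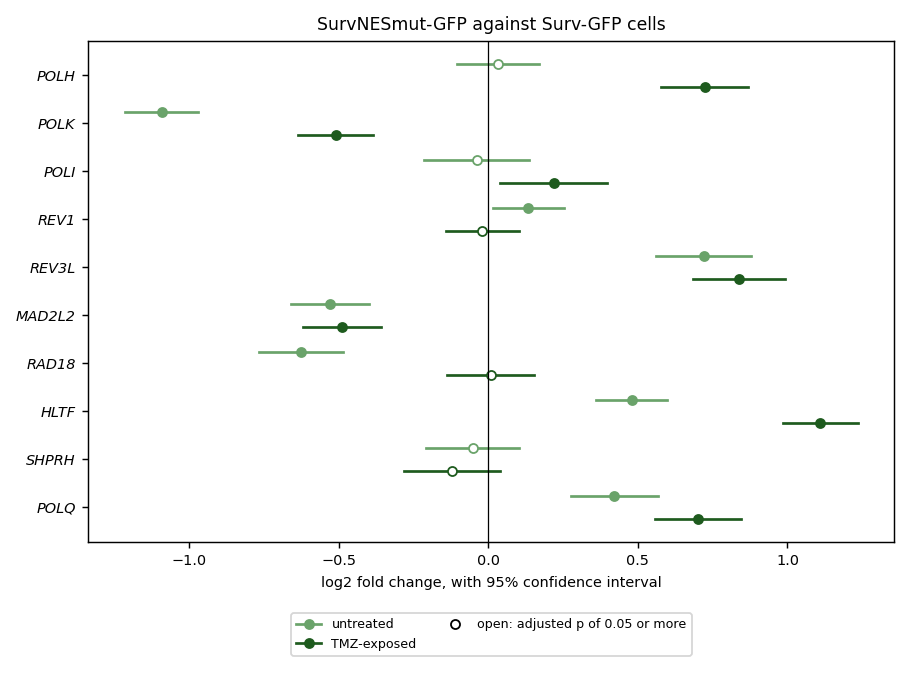
Log2 fold change of SurvNESmut-GFP against Surv-GFP cells for each gene, untreated (light green) and TMZ-exposed (dark green), with 95% confidence intervals and open symbols where the adjusted p was 0.05 or more. POLK and MAD2L2 are below 0 and REV3L, HLTF and POLQ above 0 in both conditions, while POLH and RAD18 are called in 1 condition each.

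Levels were set side by side between genes as CPM per kb of exon, with exon lengths from protein-coding transcripts of GENCODE release 29, since the annotation behind the counts was not given. MAD2L2 had the highest level per kb in all 4 groups, from 20.3 ± 0.08 in SurvNESmut-GFP untreated to 30.8 ± 0.74 CPM per kb in Surv-GFP TMZ cells (SD, n = 2). RAD18 came second in Surv-GFP untreated cells (16.3 ± 0.53), followed by REV1 (14.7 ± 0.25) and HLTF (14.1 ± 0.30), which differed by less than the sum of their SDs. After TMZ in these cells the second was REV1 (14.7 ± 0.23), ahead of RAD18 (11.3 ± 0.06), HLTF (9.26 ± 0.15) and POLK (9.18 ± 0.09). In SurvNESmut-GFP cells HLTF was second, at 19.7 ± 0.03 CPM per kb untreated and 20.01 ± 1.52 after TMZ, when MAD2L2 was at 22.0 ± 0.97. POLH lay in the middle of the order (7.38 to 12.2 CPM per kb) and REV3L and POLQ below it, indistinguishable in untreated Surv-GFP cells (4.19 ± 0.61 and 4.18 ± 0.28). The lowest places were held by POLI (2.73 to 3.17) and SHPRH (3.16 to 3.50 CPM per kb) in every group.

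Across the 8 libraries REV3L and POLQ followed each other closely (Pearson r of log2 CPM 0.982), as did POLH and HLTF (0.918) and POLH and POLI (0.910), whereas MAD2L2 and HLTF ran opposite (-0.892). The points share 4 groups of 2 libraries, so these values describe the group pattern. Among all tested genes the closest to POLH were SKP2 (0.994), MYO18A (0.993) and TRERF1 (0.993), and those closest to HLTF were PLD2 (0.995), SRD5A1 (0.994) and FHOD3 (0.994). POLK was closest to HPS5 (0.998), REV3L to PARD6A (0.996), MAD2L2 to CHD9 (0.996), POLQ to MTIF2 (0.997), RAD18 to TPM2 (0.983), SHPRH to COA5 (0.981), POLI to BCL2 (0.9746) and REV1 to PTER (0.943).

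The genes beside each member on the chromosome, 5 tested genes on either side in RefSeq order, gave a local comparison. Of the 10 neighbours of POLH, 7 rose and 1 fell upon TMZ in Surv-GFP cells (median log2 fold change 0.38), where POLH itself fell. In the same comparison 30.1% of all tested genes rose and 28.9% fell. There the neighbours of RAD18 went the same way as RAD18, with 6 lower and 2 higher (median -0.25). Those of HLTF had 1 in each direction (median -0.01), and those of POLK 5 lower and 3 higher (median -0.09). Upon TMZ in SurvNESmut-GFP cells the neighbours of RAD18 had 4 lower and 0 higher (median -0.29), where RAD18 was at 0.10. The background was 19.1% lower and 18.6% higher. For the difference between the clones their median was 0.03 (3 below 0 and 1 above called), where RAD18 was at 0.63. In untreated cells the neighbours of MAD2L2 included 6 genes lower and 0 higher in the SurvNESmut-GFP clone (median -0.36), and those of HLTF 7 higher and 1 lower (median 0.42), the direction of MAD2L2 and HLTF themselves. The background there was 34.7% higher and 29.4% lower. REV3L, REV1 and RAD18 also lay on the side of their neighbours' medians (0.39, 0.20 and -0.24). SHPRH did not follow its neighbours, of which 8 were higher and 1 lower (median 0.55). Nor did POLI, at -0.04, with 8 neighbours lower and 1 higher (median -0.45). POLQ, at 0.42, had neighbours with a median of -0.02 (4 higher and 2 lower). POLK, at -1.09, was below the median of its neighbours (-0.30, with 5 lower and 2 higher), of which COL4A3BP (-2.28) and ANKRD31 (-1.46) were lower still. Between TMZ-exposed clones the neighbours of MAD2L2 had 2 lower and 0 higher (median 0.03, background 34.7% and 34.5%), where MAD2L2 was at -0.49.

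PCNA, the sliding clamp that carries the ubiquitin mark, fell upon TMZ from 323 ± 8.19 to 170 ± 8.97 CPM in Surv-GFP cells (log2 fold change -0.92 ± 0.06, edgeR adjusted p = 8.2e-10) and from 431 ± 21.7 to 339 ± 19.1 CPM in SurvNESmut-GFP cells (-0.34 ± 0.06, edgeR adjusted p = 0.000132). In a list of 12 genes made up of PCNA itself and genes that write, read or erase this mark, 3 rose and 5, PCNA included, fell in Surv-GFP cells (median log2 fold change -0.06) and 1 rose and 5, again with PCNA, fell in SurvNESmut-GFP cells (median -0.06). Of all tested genes 30.1% rose and 28.9% fell in Surv-GFP cells, and 18.6% rose and 19.1% fell in SurvNESmut-GFP cells (median 0.00 in each). UBE2A, the conjugating enzyme that works with RAD18, rose in Surv-GFP cells (0.28 ± 0.06), and its paralog UBE2B had a log2 fold change of 0.05 there. In SurvNESmut-GFP cells UBE2B was at -0.18 (edgeR adjusted p = 0.0276), a call lost with DESeq2 (adjusted p = 0.0965), with library size alone (0.0748), with only the libraries compared (0.0588) and without SurvNESmut-GFP untreated replicate b (-0.11) or TMZ replicate a (-0.15). UBE2N, which builds the chains with HLTF and SHPRH, fell in both clones (-0.48 and -0.40), and its partner UBE2V2 rose in Surv-GFP cells (0.33). USP1, the protease that removes ubiquitin from PCNA, fell in Surv-GFP cells (-0.23, not called without Surv-GFP untreated replicate b) and was at -0.04 in SurvNESmut-GFP cells. DTL, part of another ligase for PCNA, rose in both (0.23 and 0.35).

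Of 9 accessory factors of translesion synthesis, 2 rose and 4 fell in Surv-GFP cells (median log2 fold change 0.03) and 1 rose and 3 fell in SurvNESmut-GFP cells (median -0.12). The shares over all tested genes were 30.1% and 28.9% in Surv-GFP cells and 18.6% and 19.1% in SurvNESmut-GFP cells. RPA1, which coats single-stranded DNA, fell in Surv-GFP cells (-0.53) and was at 0.10 in SurvNESmut-GFP cells, and VCP, the segregase that pulls proteins off chromatin, fell in both (-0.42 and -0.46). SPRTN, a protease for proteins linked to DNA, rose in Surv-GFP cells (0.33), and POLDIP2 rose in both (0.52 and 0.32). Among 12 subunits of the replicative polymerases, 3 rose and 6 fell in Surv-GFP cells (median -0.13) and 4 rose and 0 fell in SurvNESmut-GFP cells (median 0.12). For 7 of these subunits the difference was called above 0 and for 1 below (median 0.35, background 16.6% and 20.2%). POLD3, which polymerase delta shares with polymerase zeta, rose by 0.40 in SurvNESmut-GFP cells. In Surv-GFP cells it was at -0.14, a call lost with DESeq2 (adjusted p = 0.0950), with the replicate block (0.0540) and when any library but the SurvNESmut-GFP TMZ ones was left out. POLD4 rose in Surv-GFP cells (0.54) and was at -0.11 in the other clone. Of 6 other specialised polymerases 5 were tested, of which 2 rose and 0 fell in each clone (medians 0.05 and 0.26). These were POLB (0.76) and POLL (0.57) in Surv-GFP cells, base excision and end-joining polymerases, with values of 0.17 (not called) and 0.29 (called) in SurvNESmut-GFP cells. The latter call of POLL was lost with DESeq2 (adjusted p = 0.101) and without SurvNESmut-GFP untreated replicate a or b or TMZ replicate b.

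In a list of 12 genes of fork remodelling and protection, 3 rose and 2 fell in Surv-GFP cells (median -0.00) and 6 rose and 0 fell in SurvNESmut-GFP cells (median 0.17). Over all tested genes 30.1% rose and 28.9% fell in Surv-GFP cells, and 18.6% rose and 19.1% fell in SurvNESmut-GFP cells. CLSPN, the claspin adaptor of the replication checkpoint, fell by 0.43 in Surv-GFP and rose by 0.24 in SurvNESmut-GFP cells (0.18 and not called without SurvNESmut-GFP untreated replicate a), and the helicase gene BLM fell by 0.47 and was at 0.09. Of 14 partners of polymerase theta in end joining, 4 rose and 4 fell in Surv-GFP cells (median 0.04) and 3 rose and 1 fell in SurvNESmut-GFP cells (median 0.03). PARP1, which senses DNA breaks, fell by 0.83 in Surv-GFP cells and was at -0.03 in SurvNESmut-GFP cells. XRCC1 rose in Surv-GFP cells (0.42) and was at 0.01 in the other clone, and RBBP8, the end-resection factor CtIP, rose in both (0.38 and 0.46).

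Genes of the cell cycle and of p53 moved beside these genes. The background was 30.1% higher and 28.9% lower in Surv-GFP cells, and 18.6% and 19.1% in SurvNESmut-GFP cells. For the difference it was 16.6% called above 0 and 20.2% called below. Of 14 S phase genes 12 fell and 1, CDC6, rose in Surv-GFP cells (median log2 fold change -0.54). In SurvNESmut-GFP cells 6 fell and 2 rose (median -0.10). The difference was called above 0 for 12 and below 0 for 1 (median 0.41). The replicative helicase gene MCM2 fell by 0.96 in Surv-GFP and by 0.33 in SurvNESmut-GFP cells. Of 12 G2 and mitosis genes 12 fell in Surv-GFP cells (median -1.56) and 11 fell in SurvNESmut-GFP cells (median -0.82), among them PLK1 (-2.53 and -1.98) and CENPF (-1.59 and -0.82). Of 14 p53 responders 13 rose and 0 fell in each clone (medians 1.55 and 0.99), and CDKN1A, which codes for the cell cycle inhibitor p21, rose in both (log2 fold change 3.52 and 1.96). POLH, POLK, RAD18 and HLTF fell in Surv-GFP cells beside 12 of 14 S phase genes, whose fall was larger than in the other clone. Larger shifts in the Surv-GFP clone were not limited to S phase genes. For G2 and mitosis genes the difference was called above 0 for 10 of 12 and below 0 for 0. Among the 14 p53 responders it was called below 0 for 9 and above 0 for 1. With the sign ignored, log2 fold changes of all tested genes had a median of 0.32 for Surv-GFP against 0.20 for SurvNESmut-GFP. The part of the cell cycle in the levels of POLH, POLK, RAD18 and HLTF was not tested.

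**Figure D5:**
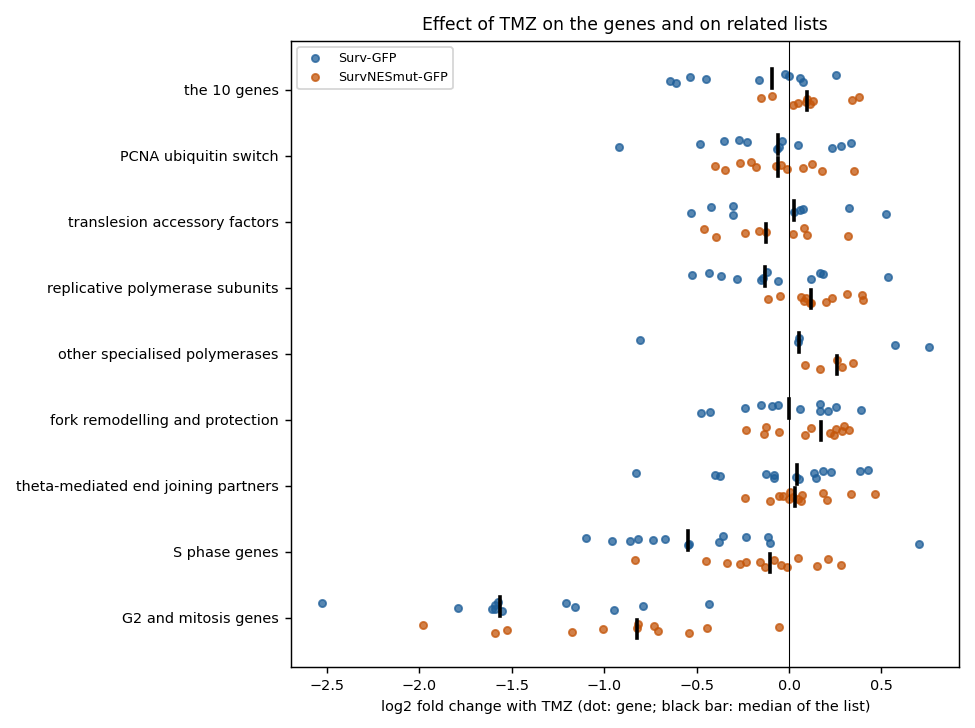
Log2 fold change upon TMZ (horizontal) of each gene (dot) of the 10 and of 8 related lists, in Surv-GFP (blue) and SurvNESmut-GFP cells (orange), with the list median as a black bar. The medians of the 10 genes lie at -0.09 and 0.10, and those of the S phase genes at -0.54 and -0.10 and of the G2 and mitosis genes at -1.56 and -0.82.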

How the data were processed

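Bulk RNA-seq was measured in 8 libraries of LN229 clones, 2 per group. The authors deposited raw counts per gene (unit: counts) for all libraries in 1 table. The submitters' processing notes name STAR 2.5.0b, Cufflinks 2.2.1 and edgeR with no role, and neither the counter, the strandedness, the annotation nor the genome build could be taken from the sources. The tables of the authors' own comparisons, which hold fold changes and p values, were not used. Of all counts, 11.2 to 14.3% were in the row for no feature and 1.19 to 1.28% in the row for ambiguous reads, and both rows were left out.

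Groups were taken from the sample labels. Genes were filtered by filterByExpr (minimum count 10, minimum total 15), which left 14201, scaled by TMM and fitted with 4 group means over all 8 libraries in edgeR 4.0.16 (R 4.3.3, glmQLFit in its legacy form, quasi-likelihood F test). P values were adjusted by Benjamini-Hochberg over all tested genes, 2-sided, called at 0.05. The paper's methods name the same test. They report few significant hits for the TMZ effect within clones and its comparison between clones, so the p threshold was relaxed. Here 30.1% of tested genes rose and 28.9% fell upon TMZ in Surv-GFP cells. In SurvNESmut-GFP cells 18.6% rose and 19.1% fell. The reason for this gap was not tested. The interaction and both clone comparisons were contrasts of the same fit, 5 in all. Replicates differed beyond sampling noise (chi-square per degree of freedom 2.20 to 5.75) and were kept apart. The common biological coefficient of variation was 4.09%. Alternatives were other scalings, other low-count filters, DESeq2 1.42.0, other quasi-likelihood settings, a replicate block, only the libraries compared, and leaving out each library in turn. Scripts were tested on simulated data.

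The 10 genes and the gene lists (PCNA ubiquitin switch, replicative polymerase subunits, other specialised polymerases, translesion accessory factors, fork remodelling and protection, theta-mediated end joining partners, S phase, G2 and mitosis, p53 responders, cell line identity and other cell types) were chosen with earlier results of these data known. Named were the 10 genes, BIRC5, CDKN1A and MGMT, PCNA, UBE2A, UBE2B and USP1, up to 2 called genes of a list with the smallest p in each direction in the TMZ comparisons and their difference where groups did not overlap, and the 3 genes with the highest r to each of the 10. Of the list genes that this rule gives, the text prints a part. Of the cell line identity list 1 rose and 3 fell in Surv-GFP and 2 rose and 3 fell in SurvNESmut-GFP cells, and of the other cell type list 1 rose and 0 fell in each. The shares over all tested genes were 30.1% and 28.9% in Surv-GFP and 18.6% and 19.1% in SurvNESmut-GFP cells. Promoters came from RefSeq on GRCh38.p14 and matched all 10 genes, 8 with 1 promoter. Exon lengths and overlaps came from GENCODE release 29. Neighbours came from 13952 tested genes with a RefSeq position.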

Additional observations from a re-analysis of the deposited data

Results flagged for a closer look

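The effect of TMZ differed between the clones, by the interaction test in edgeR, for 5 of the 10 genes. All 5 were called above 0. Of all tested genes 16.6% were called above 0 and 20.2% below. The log2 differences (SurvNESmut-GFP minus Surv-GFP) were 0.69 for POLH, 0.63 for HLTF, 0.63 for RAD18, 0.58 for POLK and 0.28 for POLQ, over 8 libraries. The first 4 fell in Surv-GFP cells and were not called in SurvNESmut-GFP cells, and POLQ rose in SurvNESmut-GFP cells. The POLQ difference was not called with DESeq2 (adjusted p = 0.0835) or when any library but Surv-GFP untreated replicate a or SurvNESmut-GFP TMZ replicate b was left out.

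Of the other genes named, differences above 0 were called for PCNA (0.58), POLD3 (0.54), RPA1 (0.62), CLSPN (0.67), BLM (0.56), PARP1 (0.79), MCM2 (0.62), CENPF (0.77) and PLK1 (0.55). Differences below 0 were called for UBE2V2 (-0.41), POLD4 (-0.65), POLB (-0.59), SPRTN (-0.49), POLDIP2 (-0.21), XRCC1 (-0.42), CDC6 (-0.55), CDKN1A (-1.56) and BIRC5 (-1.48). The POLDIP2 difference was not called with DESeq2 (adjusted p = 0.159), with library size alone (0.115), with both other low-count filters (0.0839 and 0.0878) or when any library but Surv-GFP untreated replicate a or SurvNESmut-GFP TMZ replicate a was left out. Groups of 2 libraries are too small for a test of single outlying libraries.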

How the results depend on the processing

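The falls of POLH, POLK, RAD18 and HLTF in Surv-GFP cells, and their differences between the clones, kept their direction and their call under all alternatives run. The count of members higher upon TMZ in Surv-GFP cells was 0 to 1 when each library was left out in turn. The count of members lower upon TMZ in SurvNESmut-GFP cells, 1 as reported (REV1), was 0 with library size alone, with DESeq2, with the replicate block and with only the libraries compared, and 0 to 1 when each library was left out (0 without any Surv-GFP library, SurvNESmut-GFP untreated replicate b or SurvNESmut-GFP TMZ replicate b). Counts over all genes never moved by more than 1.5 times.

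Values near 0 changed sign. Upon TMZ in Surv-GFP cells REV1 was -0.0199 with DESeq2 size factors, -0.0175 with library size alone, -0.0198 with every gene that had a count, -0.0200 with DESeq2, -0.0397 with at least 1 CPM in 2 libraries and -0.0135 to 0.0221 without each library, and POLQ was -0.00414 to 0.133 without each library. In SurvNESmut-GFP cells the ranges without each library were -0.0532 to 0.0986 for HLTF, -0.116 to 0.0296 for USP1 and -0.00819 to 0.0259 for XRCC1, and PARP1 was 0.00300 with library size alone. Differences between the clones ranged without each library from -0.0407 to 0.257 for REV3L and from -0.00351 to 0.0947 for MAD2L2, and VCP was at 0.0197 with library size alone and 0.00972 with at least 1 CPM in 2 libraries. In untreated cells POLH was -0.0239 with library size alone, -0.000730 with every gene that had a count, -0.0104 with at least 1 CPM in 2 libraries, -0.00159 with only the libraries compared and -0.00416 to 0.0735 without each library, and SHPRH was -0.109 to 0.00611. After TMZ RAD18 was -0.00236 with DESeq2 size factors, -0.00283 with DESeq2, -0.00781 with every gene that had a count and -0.114 to 0.0491 without each library. The cause was not tested.

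Of 840 values of the 10 genes under alternatives, 767 kept direction and call, 41 lost the call, 4 gained it and 28 changed sign, and of 1300 values of the other named genes 1256, 29, 9 and 6 did so. The deviations of replicate a from its group mean were hardly correlated between groups (-0.07 to 0.08), so no pairing by letter was visible. Whether the letters mark matched libraries was not given. With the replicate block the calls of REV1 upon TMZ in SurvNESmut-GFP cells (edgeR adjusted p = 0.0594) and between untreated clones (0.0609) and of POLD3 upon TMZ in Surv-GFP cells (0.0540) were lost, and no other call of a named gene. With 2 libraries per group, a library left alone was assumed to vary like the others.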
